A study of Arabidopsis thaliana with 15 samples.

Results

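Transcripts of 2 enzyme families were followed in Arabidopsis leaves: the beta-glucosidases, whose genes are named BGLU with a number, and the serine carboxypeptidase-like proteins, named SCPL with a number. The members were all probe sets that the platform annotation pairs with a single gene of such a name, leaving out BGLU45 and BGLU46. This gave 18 BGLU genes of the 38 in the gene table used and 29 SCPL genes of its 49. Together they were 47 genes, each with 1 probe set, among 13513 probe sets that name a single gene. A further 3 probe sets that name several genes with a BGLU or SCPL gene among them were left out. No member probe set carries a suffix that marks shared transcripts, but the genes have close relatives, and how far each probe set also binds these was not tested.

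Glycoside hydrolases of the BGLU family release glucose from small conjugates. In leaves these include defence glucosides, flavonoids, hormone conjugates and precursors of lignin. Several relatives, PYK10 among them, are stored in ER bodies, compartments derived from the endoplasmic reticulum, and meet their substrates when the cell is broken. The SCPL family shares the fold and catalytic triad of serine carboxypeptidases, which remove amino acids from the C-terminus of proteins in the vacuole or outside the cell. A low-numbered branch of it holds acyltransferases that use glucose esters such as sinapoylglucose as donors, so that both families act on glucose conjugates as well as on proteins or cell wall material.

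The 5 groups, each of 3 biological replicates on 1 array each, were rps2 mutant leaves 10 h and 0 h after infiltration and Col-0 wild-type leaves 0, 6 and 10 h after it. All were mature leaves of 4-week-old soil-grown plants, and all were infiltrated with Pseudomonas syringae pv. maculicola (Psm) carrying AvrRpt2, an effector whose action in the cell the resistance protein RPS2 detects. The labels name no rps2 allele and no mock infiltration, so a change over time cannot be told apart from the effect of the infiltration itself or of the time of day. Values are log2 differences from each probe set's own median over the arrays. They hold no absolute level, and a gene that kept its level cannot be told apart from one below detection.

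One array stood apart. Over all probe sets, rps2 10 h replicate 3 differed from the 3 rps2 0 h arrays by an SD of 0.170 to 0.200, against 0.949 and 0.942 from replicates 1 and 2 of its own group, which differed from each other by 0.207. Among the members, 34 of 47 had a replicate 3 value nearer to the rps2 0 h mean than to that of the other 10 h arrays. This count has no share of all probe sets beside it, and members that barely moved lie close to both means. Counts for rps2 at 10 h are therefore given with and without this array, and so are the values of the genes described most fully. Other gene values are from all arrays unless stated. The mean of the 24 poly-A spike-in probe sets, for RNAs meant to be added in known amounts, read 0.92, 1.13 and 0.90 for the 10 h replicates of Col-0. The remaining 12 arrays ranged over -0.49 to 0.12. Among them rps2 10 h replicates 1 and 2 read -0.005 and -0.49, and the rps2 0 h arrays 0.02 to 0.12. Without rps2 10 h replicate 3, the spike-in shift for rps2 at 10 h thus rests mostly on replicate 2. How evenly these RNAs were added was not tested. Centring the arrays on these probe sets moved the median change of all probe sets by -1.08 for Col-0 10 h against 0 h, by -1.11 against 6 h, by 1.20 for rps2 against Col-0 at 10 h and by 0.29 for rps2 10 h against 0 h. Changes on the deposited scale are thus relative to the bulk of transcripts, and turns of direction on the spike-in scale are given beside the genes described. Shares of all probe sets called are given only for the deposited scale, with and without rps2 10 h replicate 3. Member counts under other settings thus have no background share and are not read as results about the families. On rps2 10 h replicates 1 and 2 the SD over all probe sets was 0.43 and 0.38, against 0.74 to 1.13 on the other arrays. Repeated quantile normalisation, used below, gives all arrays the same distribution and so widens the values of these replicates. It narrows those of the Col-0 10 h replicates, where the SD was 1.07, 1.13 and 1.08. Smaller changes and lost calls at Col-0 10 h under it cannot be told apart from this narrowing.

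The members differed widely in how far they moved. Without rps2 10 h replicate 3, the distance between a gene's highest and lowest group mean was 0.16 to 7.15 in the BGLU family, with a median of 1.07, and 0.10 to 4.24 in the SCPL family, with a median of 0.40. The median over all probe sets was 0.81. A distance of at least 1 was found for 9 of 18 BGLU genes (50%), 13 of 29 SCPL genes (44.8%) and 43.7% of all probe sets. These 22 genes peaked and dipped in different places. Of the 13 such SCPL genes, 10 were lowest in Col-0 at 10 h. Of the 9 such BGLU genes, 3 were lowest in rps2 at 10 h and 3 in rps2 at 0 h. The others were lowest in Col-0 at 0, 6 or 10 h, with 1 gene for each time. No share of all probe sets is given for these places, and the Col-0 10 h arrays had the largest SD. The counts are thus not read as a result about the families.

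**Figure D1:**
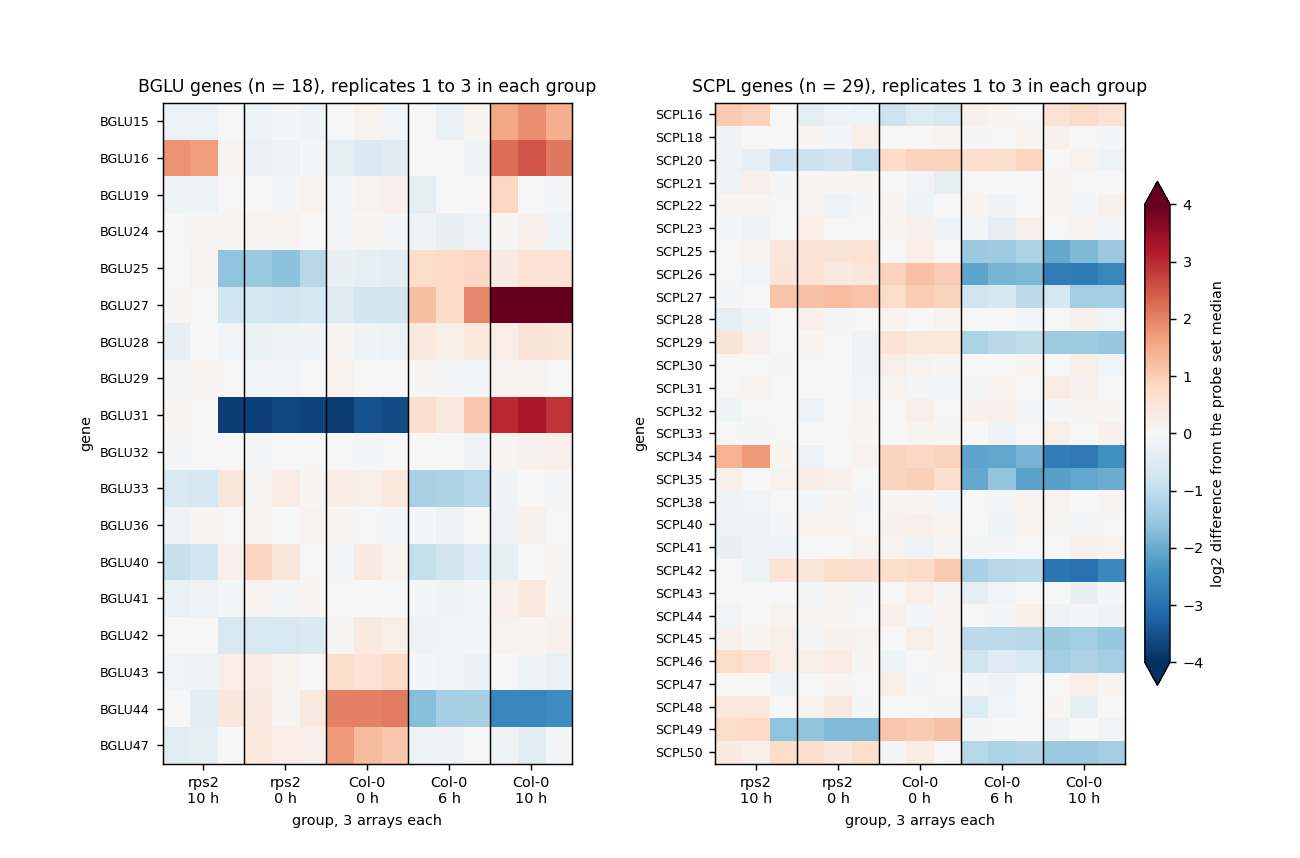
Log2 difference from the probe set median (colour) for the 18 BGLU and 29 SCPL genes (vertical axis) on each of the 15 arrays, 3 replicates a group (horizontal axis). BGLU27 and BGLU31 are the strongest high values, both on the Col-0 10 h arrays, many SCPL genes are lowest on those arrays, and rps2 10 h replicate 3 has the colours of the rps2 0 h arrays.

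In Col-0, BGLU27 and BGLU31 had the largest rises of either family by 10 h, and BGLU44 the largest fall. Against 0 h, 7 of 18 BGLU genes rose and 3 fell on the deposited scale, where 29.2% of all probe sets rose and 30.5% fell. After repeated quantile normalisation 4 rose and 3 fell, and on the spike-in scale 4 rose and 13 fell. The median change of the family was 0.11, against 0.00 for all probe sets. Without rps2 10 h replicate 3, which enters comparisons within Col-0 only through the shared estimate of the spread, 8 BGLU genes rose and 4 fell, where 31.1% of all probe sets rose and 33.1% fell.

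BGLU27 (AT3G60120) read -0.50, -0.75 and -0.72 in Col-0 at 0 h, then 1.19, 0.77 and 1.97 at 6 h and 6.35, 6.71 and 6.20 at 10 h. The 3 times did not overlap, and most of the rise came after 6 h. Its fitted change from 0 h was 1.97 ± 0.28 by 6 h (standard error, as for all fitted changes here; limma, adjusted p = 4.4e-05) and 7.08 ± 0.28 by 10 h (adjusted p = 2.8e-10), and it was 6.00 by 10 h on the spike-in scale. BGLU31 (AT5G24540) read -3.76, -3.48 and -3.58 at 0 h, 0.64, 0.40 and 1.07 at 6 h and 3.01, 3.27 and 2.90 at 10 h. It had risen on every 6 h array already, by 4.31 ± 0.73 (adjusted p = 0.00023), and stood 6.67 ± 0.73 above 0 h by 10 h (adjusted p = 3.7e-06). The step from 6 to 10 h, 2.36 ± 0.73 (adjusted p = 0.028), lost its call when Col-0 6 h replicate 1 or 2 or any 1 of the Col-0 10 h replicates was left out (2.21 to 2.44). It was not called after repeated quantile normalisation (1.34) or on the spike-in scale (1.25).

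BGLU16 (AT3G60130) and BGLU15 (AT2G44450) rose late. BGLU16 read -0.38, -0.57 and -0.48 in Col-0 at 0 h, then 0.00, 0.01 and -0.18 at 6 h and 2.23, 2.52 and 2.12 at 10 h. The change by 10 h was 2.77 ± 0.33 (limma, adjusted p = 7.2e-06), whereas that by 6 h was 0.42 ± 0.33 (adjusted p = 0.31), and 0.42 ± 0.10 without rps2 10 h replicate 3 (adjusted p = 0.0018). BGLU15, known to hydrolyse flavonol bisglycosides, read 0.00, 0.14 and -0.12 at 0 h, 0.03, -0.27 and 0.11 at 6 h and 1.56, 1.86 and 1.44 at 10 h. Its 0 and 6 h arrays overlapped, and its 10 h arrays stood 1.61 ± 0.13 above those at 0 h (adjusted p = 1.6e-07), or 0.53 on the spike-in scale.

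BGLU25 (AT3G03640), which belongs by sequence with the ER-body glucosidases, was higher by 6 h. It read -0.31, -0.38 and -0.42 at 0 h, 0.73, 0.80 and 0.84 at 6 h and 0.36, 0.57 and 0.59 at 10 h. The gain was 1.16 ± 0.34 by 6 h (limma, adjusted p = 0.012) and 0.88 ± 0.34 by 10 h (adjusted p = 0.042), although the 10 h value was -0.20 on the spike-in scale. BGLU28 (AT2G44460), a gene known from glucosinolate breakdown under sulfur shortage, and BGLU32 rose by 0.54 ± 0.11 and 0.19 ± 0.06 by 10 h on the deposited scale, and both were lower on the spike-in scale (-0.54 and -0.88).

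The 3 BGLU genes that fell in Col-0 did so by 6 h. BGLU44 (AT3G18080), whose product is known to act on mannosides, read 2.03, 2.03 and 2.08 at 0 h, -1.69, -1.36 and -1.34 at 6 h and -2.62, -2.62 and -2.50 at 10 h. It was lower at each later time with no overlap. The fitted changes from 0 h were -3.51 ± 0.17 (limma, adjusted p = 5.8e-09) and -4.63 ± 0.17 (adjusted p = 1.8e-10), and the step from 6 to 10 h, -1.12 ± 0.17, was not called after repeated quantile normalisation (-0.37). BGLU47 (AT4G21760), a relative of the glucosidases of monolignol glucosides, changed by -1.46 ± 0.16 by 6 h and -1.58 ± 0.16 by 10 h, with values of 1.09 to 1.69 at 0 h, -0.18 to 0.00 at 6 h and -0.44 to -0.08 at 10 h. BGLU43 changed by -0.84 ± 0.12 and -0.82 ± 0.12. Neither BGLU47 nor BGLU43 passed the test between 6 and 10 h.

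BGLU33 (AT2G32860) was, in the fit with all arrays, the only member whose calls in Col-0 had opposite signs. It read 0.31, 0.24 and 0.42 at 0 h, -1.29, -1.22 and -1.14 at 6 h and -0.13, 0.00 and -0.08 at 10 h, so the 6 h arrays lay below all others. It fell by 6 h (-1.54 ± 0.23, limma, adjusted p = 6.8e-05) and rose again from 6 to 10 h (1.15 ± 0.23, adjusted p = 0.0020), but the second change was 0.03 and not called on the spike-in scale, and 1.13 and not called after repeated quantile normalisation. BGLU40 changed by -0.88 ± 0.28 by 6 h (adjusted p = 0.016), a call lost without Col-0 0 h replicate 2 (-0.78) or Col-0 6 h replicate 1 (-0.77).

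By 6 h in Col-0, 4 BGLU genes had risen and 5 had fallen, where 25.5% of all probe sets rose and 28.6% fell. These were 5 and 6 without rps2 10 h replicate 3, beside 27.7% and 32% of all probe sets. From 6 to 10 h, 7 rose (38.9%) and 1 fell (5.56%), where 12.7% of all probe sets rose and 17.2% fell. For that step the spike-in scale, on which the median of all probe sets moved by -1.11, gave 3 higher and 12 lower. Repeated quantile normalisation, which narrows the Col-0 10 h values, gave 2 higher and 0 lower. Neither count has a background share. On the deposited scale without rps2 10 h replicate 3, 9 rose and 1 fell, beside 18.4% and 24.8% of all probe sets. Read over both times, 4 genes were higher at 6 and at 10 h, 3 were lower at both, 2 were lower at 6 h alone, 3 were higher at 10 h alone and 6 passed neither test. Over all probe sets these shares were 21.8%, 25%, 3.29%, 7.16% and 33.7%.

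**Figure D2:**
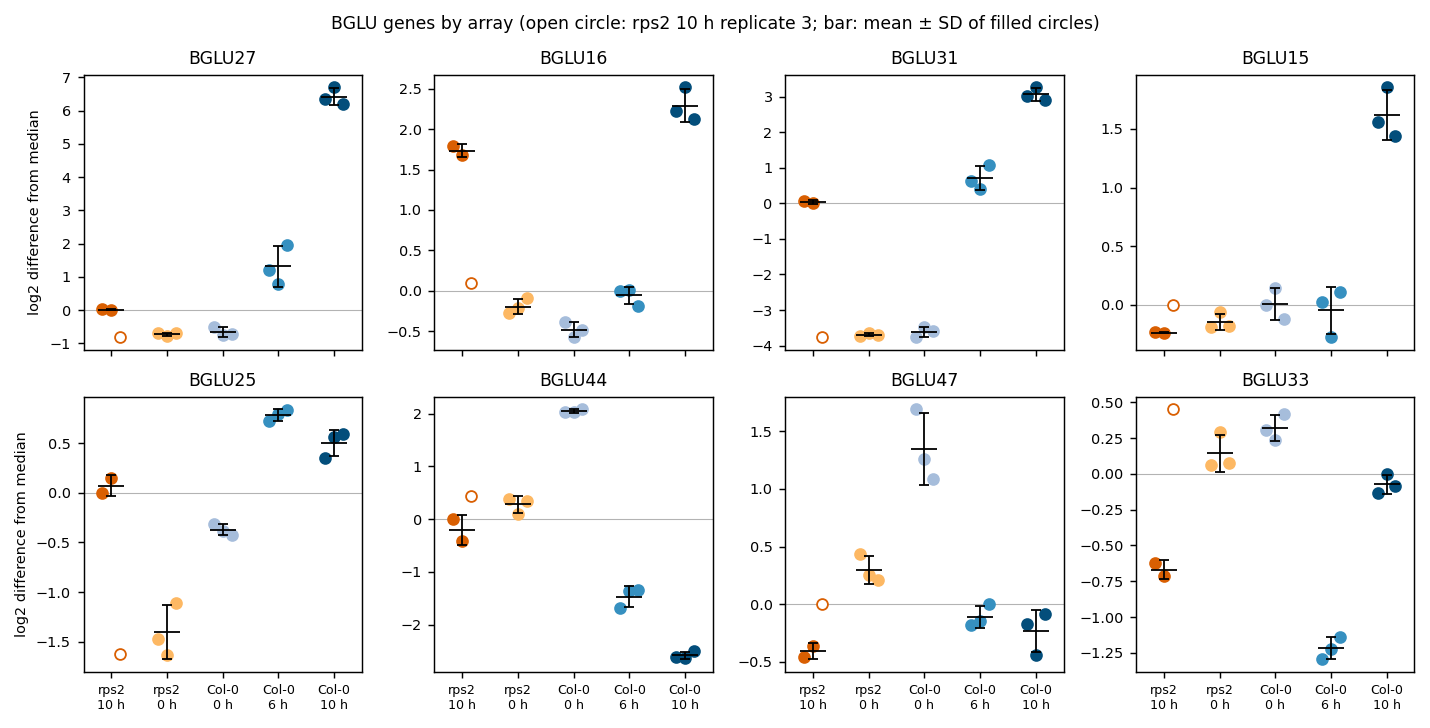
Log2 difference from the probe set median (vertical axis) of 8 BGLU genes in the 5 groups (horizontal axis). Each circle is an array, the bar is the mean and SD of the filled circles, and the open circle is rps2 10 h replicate 3. BGLU27 reaches 6.20 to 6.71 in Col-0 at 10 h and stays between -0.81 and 0.03 on the rps2 10 h arrays.

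In the SCPL family the falls outnumbered the rises in Col-0. Against 0 h, 13 of 29 genes (44.8%) had fallen and 1 (3.45%) had risen by 10 h, where 30.5% of all probe sets fell and 29.2% rose. SCPL26, SCPL42, SCPL34 and SCPL35 fell most, and SCPL16 was the gene that rose. By 6 h, 11 (37.9%) had fallen and 1 had risen, beside 28.6% and 25.5% of all probe sets. All 11 that were lower at 6 h were also lower at 10 h, 2 were lower at 10 h alone, and 15 passed neither test. Over all probe sets, 25% were lower at both times, 5.05% were lower at 10 h alone and 33.7% passed neither test. The median change by 10 h was -0.19, against 0.00 for all probe sets. Leaving out rps2 10 h replicate 3, 13 had fallen and 1 had risen at each of the 2 times, beside 33.1% and 31.1% of all probe sets by 10 h and 32% and 27.7% by 6 h. With arrays centred on the spike-ins 28 were lower and 0 higher by 10 h, and 10 lower and 1 higher by 6 h. That centring moved the median change of all probe sets by -1.08 by 10 h and by 0.04 by 6 h.

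SCPL26 (AT2G35780) read 0.93, 1.16 and 1.01 in Col-0 at 0 h, then -2.11, -1.86 and -1.79 at 6 h and -2.81, -2.83 and -2.60 at 10 h. The 3 times did not overlap. The fitted change was -2.95 ± 0.15 by 6 h (limma, adjusted p = 6.7e-09) and -3.78 ± 0.15 by 10 h (adjusted p = 2.7e-10). The further step from 6 to 10 h, -0.83 ± 0.15, turned to 0.10 after repeated quantile normalisation. SCPL42 (AT5G42240) read 0.72, 0.78 and 1.05 at 0 h, -1.30, -1.10 and -1.05 at 6 h and -2.93, -2.98 and -2.56 at 10 h. Its fall was spread over both intervals, -2.00 ± 0.18 by 6 h and -1.68 ± 0.18 from 6 to 10 h (adjusted p = 1.6e-05).

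SCPL34 (AT5G23210) read 0.88, 0.82 and 0.88 in Col-0 at 0 h, then -2.12, -2.08 and -1.87 at 6 h and -2.77, -2.85 and -2.46 at 10 h. The change was -2.88 ± 0.30 by 6 h (limma, adjusted p = 3.5e-06) and -3.56 ± 0.30 by 10 h (adjusted p = 3.3e-07). SCPL35 (AT5G08260) read 0.88, 0.94 and 0.63 at 0 h, -2.05, -1.58 and -2.15 at 6 h and -2.17, -2.09 and -1.98 at 10 h, so that its 6 and 10 h arrays overlapped. It had changed by -2.75 ± 0.15 by 6 h, and the step from 6 to 10 h, -0.15 ± 0.15, did not pass the test (adjusted p = 0.49). SCPL25, SCPL27, SCPL29, SCPL45, SCPL46 and SCPL50 also fell at both times, with changes by 10 h of -2.03 ± 0.27 (SCPL27) to -1.28 ± 0.12 (SCPL46). The eleventh, SCPL40, changed by only -0.19 ± 0.08.

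SCPL16 (AT3G12220), which by sequence belongs to the branch with the known acyltransferases, read -0.81, -0.55 and -0.65 in Col-0 at 0 h, then 0.17, 0.06 and 0.00 at 6 h and 0.58, 0.77 and 0.57 at 10 h. It rose by 0.75 ± 0.21 by 6 h (limma, adjusted p = 0.0088) and by 1.31 ± 0.21 by 10 h (adjusted p = 0.00012). The change by 10 h was 0.23 on the spike-in scale and did not pass the test there. SCPL20 (AT4G12910) read 0.79, 0.93 and 0.91 at 0 h, 0.68, 0.65 and 0.84 at 6 h and 0.00, 0.13 and -0.20 at 10 h. It was the family's clearest late fall, with -0.15 ± 0.14 by 6 h and -0.90 ± 0.14 by 10 h (adjusted p = 0.00011). From 6 to 10 h, 5 SCPL genes (17.2%) fell and 0 rose, and 17.2% of all probe sets fell and 12.7% rose, so that the share of falls was that of the background. The counts were 29 and 0 on the spike-in scale, where the median of all probe sets moved by -1.11, and 2 and 1 after repeated quantile normalisation. At an unadjusted p under 0.05, limma counted 10 for that step, with no share of all probe sets to set beside it. Without rps2 10 h replicate 3 limma called 8 lower and 1 higher, beside 24.8% and 18.4% of all probe sets.

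A change in a mesophyll marker accompanied these falls. RCA, which encodes Rubisco activase, read 0.00, -0.03 and 0.41 in rps2 at 10 h, against 0.44, 0.41 and 0.42 at 0 h. In Col-0 it read 0.33, 0.26 and 0.19 at 0 h, then -0.97, -1.10 and -0.87 at 6 h and -2.90, -2.87 and -2.78 at 10 h. It was the 1 measured gene of 5 listed for mesophyll. The guard cell gene FMA and the phloem gene SWEET11, each the 1 measured gene of 4 listed, changed by -0.60 and -1.22 in Col-0 by 10 h, and no root marker of 3 was measured. The part of these shifts in the results was not tested. In whole leaves, fewer cells of a type and less of a marker's own transcript per cell cannot be told apart.

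**Figure D3:**
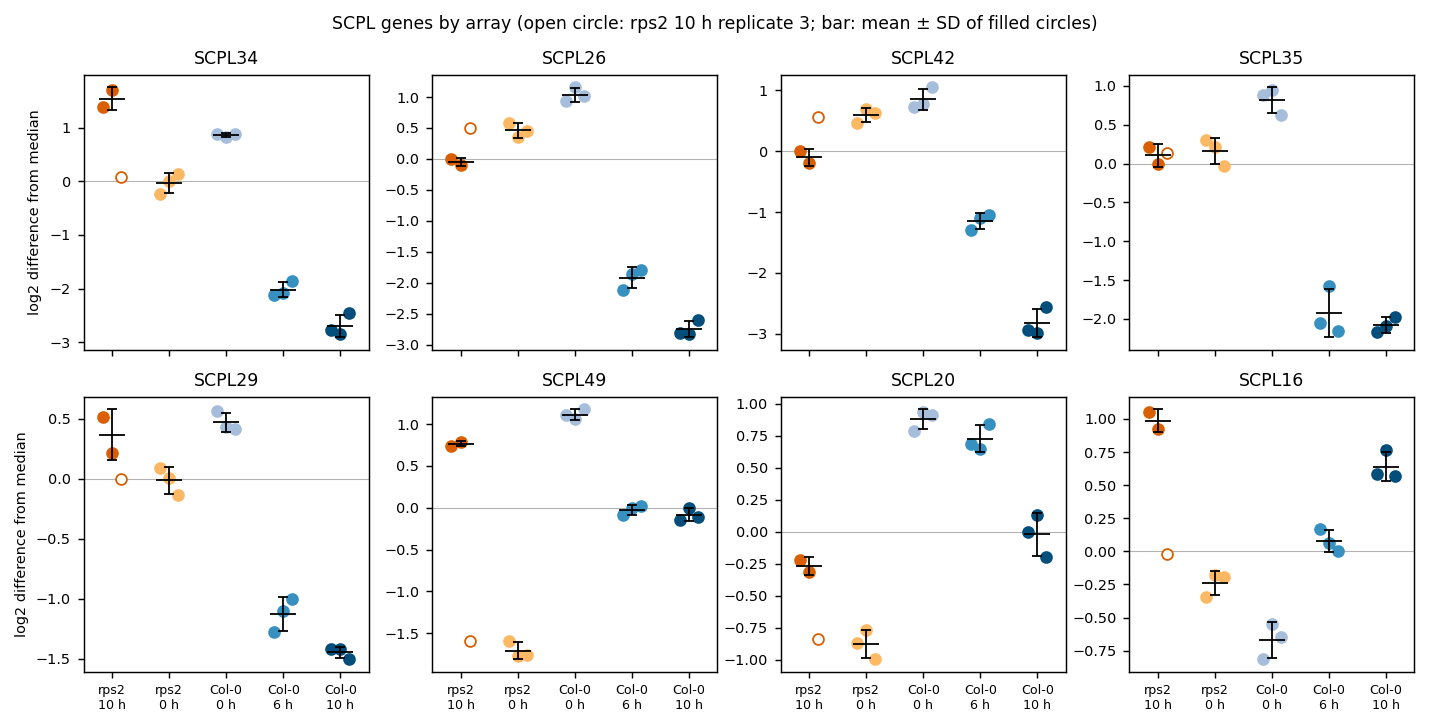
Log2 difference from the probe set median (vertical axis) of 8 SCPL genes in the 5 groups (horizontal axis), drawn as in the plot of the BGLU genes with rps2 10 h replicate 3 as the open circle. SCPL34 lies at -2.85 to -2.46 in Col-0 at 10 h and at 1.39 and 1.69 on the 2 filled rps2 10 h circles.

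At 10 h most BGLU calls between the genotypes were lower in rps2 and most SCPL calls higher, on the deposited scale. The difference between the families was not tested. In rps2, 8 of 18 BGLU genes (44.4%) were lower than in Col-0 and 1 (5.56%) was higher, while 10 of 29 SCPL genes (34.5%) were higher and 2 (6.9%) lower. Of all probe sets, 26.9% were higher and 28.2% lower. With arrays centred on the spike-ins most members of both families were higher in rps2, 13 BGLU genes against 3 lower and 29 SCPL genes against 0. That centring moved the median difference of all probe sets by 1.20, so these counts are not a result about the families. Without rps2 10 h replicate 3, the deposited scale gave 1 BGLU gene higher and 9 lower, and 13 SCPL genes higher and 3 lower, where 27.8% of all probe sets were higher and 29.6% lower. The median difference was then -0.43 for BGLU, 0.06 for SCPL and -0.06 for all probe sets.

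BGLU27 showed the widest gap. It read 0.03, 0.00 and -0.81 in rps2 at 10 h, against 6.35, 6.71 and 6.20 in Col-0 at 10 h, a difference of -6.68 ± 0.28 (limma, adjusted p = 8.4e-10) and of -6.40 ± 0.24 without replicate 3. BGLU31 read 0.07, 0.00 and -3.76 in rps2, against 3.01, 3.27 and 2.90 in Col-0. Its difference was -4.29 ± 0.73 with replicate 3 and -3.03 ± 0.16 without it, and without it -1.80 on the spike-in scale and -1.85 after repeated quantile normalisation. BGLU15 read -0.23, -0.24 and 0.00 in rps2, against 1.56, 1.86 and 1.44 in Col-0, a difference of -1.77 ± 0.13, and of -1.85 ± 0.13 without replicate 3, which was -0.62 on the spike-in scale. For these 3 genes no rps2 array reached a Col-0 10 h value, and the differences kept their sign under both other scalings.

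BGLU16 was less clear. It read 1.79, 1.68 and 0.10 in rps2 at 10 h, against 2.23, 2.52 and 2.12 in Col-0, a difference of -1.10 ± 0.33 (limma, adjusted p = 0.012) that shrank to -0.56 ± 0.11 without replicate 3. Its sign turned to 0.10 on the spike-in scale and to 0.20 after repeated quantile normalisation. BGLU25, BGLU28, BGLU32 and BGLU41 were also lower in rps2 at 10 h on the deposited scale, with differences of -0.997 to -0.17, and all 4 turned positive on the spike-in scale (0.21 to 1.03). BGLU40 and BGLU33 were called lower without replicate 3 (-0.73 ± 0.21 and -0.60 ± 0.09) but not with it (-0.38 and -0.22), and without it they turned to 0.50 and 0.63 on the spike-in scale. BGLU44 was the BGLU gene that stood higher in rps2: it read 0.00, -0.41 and 0.44, against -2.62, -2.62 and -2.50 in Col-0, a difference of 2.59 ± 0.17, and of 2.38 ± 0.13 without replicate 3.

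Among the SCPL genes, SCPL34 differed most. It read 1.39, 1.69 and 0.08 in rps2 at 10 h, against -2.77, -2.85 and -2.46 in Col-0, a difference of 3.75 ± 0.30 (limma, adjusted p = 3.2e-07) and of 4.24 ± 0.14 without replicate 3. SCPL42 read 0.00, -0.20 and 0.56 in rps2, against -2.93, -2.98 and -2.56, a difference of 2.94 ± 0.18, and of 2.73 ± 0.14 without replicate 3. SCPL26 read 0.00, -0.10 and 0.51, against -2.81, -2.83 and -2.60, a difference of 2.88 ± 0.15, and of 2.70 ± 0.11 without replicate 3. In these genes the rps2 arrays lay above all Col-0 10 h arrays, replicate 3 included. SCPL35, SCPL25, SCPL50, SCPL46, SCPL29, SCPL45 and SCPL27 were also higher in rps2, by up to 2.19 with either set of arrays (SCPL35).

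SCPL20 and SCPL41 were the 2 SCPL genes lower in rps2 at 10 h on the deposited scale with all arrays, by -0.44 ± 0.14 and -0.31 ± 0.09, and both were higher on the spike-in scale (0.77 and 0.89). The call of SCPL20 was lost without Col-0 10 h replicate 1 (-0.43), Col-0 10 h replicate 2 (-0.36) or rps2 10 h replicate 3 (-0.25). SCPL16, which rose in both genotypes, differed between them by 0.01 ± 0.21 with all arrays (limma, adjusted p = 0.97) and by 0.35 ± 0.10 without replicate 3 (adjusted p = 0.0077). Without replicate 3 that difference was 1.58 on the spike-in scale and 1.27 after repeated quantile normalisation. SCPL28 and SCPL40, called lower in rps2 without replicate 3 (-0.29 and -0.21), turned to 0.94 and 1.02 on the spike-in scale.

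The test of the difference itself, the 10 h change of rps2 less that of Col-0, passed for 9 BGLU genes, 3 positive and 6 negative, and for 13 SCPL genes, 12 positive (41.4%) and 1 negative. Of all probe sets, 22.1% were positive and 22.4% negative. Centred on the spike-ins, the BGLU split turned to 13 positive and 2 negative, and the SCPL split was 29 and 0. There the median of all probe sets moved by 1.37, so these splits are not a result about the families. Without rps2 10 h replicate 3, 5 BGLU genes were positive and 8 negative, and 12 SCPL genes positive and 1 negative, with 25.3% and 26.5% of all probe sets. With repeated quantile normalisation added to that, the SCPL split was 13 and 3. The comparisons share the Col-0 10 h arrays, so that a gene with an unusual value there appears in each of them.

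With all arrays, the largest positive differences of change were those of SCPL34 (4.64 ± 0.43), BGLU44 (4.36 ± 0.24), SCPL26 (3.46 ± 0.21) and SCPL42 (3.20 ± 0.25). The largest negative differences with all arrays were those of BGLU27 (-6.61 ± 0.39), BGLU31 (-4.20 ± 1.04), BGLU15 (-1.62 ± 0.18) and BGLU16 (-1.38 ± 0.46). The order changed without rps2 10 h replicate 3: SCPL34 (5.13), BGLU44 (4.14), SCPL49 (3.67) and SCPL26 (3.27) then led on the positive side, and BGLU27 (-6.33), BGLU31 (-2.94), BGLU15 (-1.70) and BGLU40 (-1.03) on the negative side. Among these, BGLU40 turned to 0.36 on the spike-in scale, and BGLU33, called at -0.42 without replicate 3, turned to 0.97. On the spike-in scale BGLU15 was at -0.26 and BGLU16 at -0.02, neither called, and without rps2 10 h replicate 3 BGLU16 turned from -0.84 to 0.56 there. BGLU16 lost its call when Col-0 0 h replicate 2 or 3, Col-0 10 h replicate 2 or rps2 0 h replicate 3 was left out (-1.27 to -1.38), and SCPL27 (1.20 ± 0.39) when Col-0 0 h replicate 2 or Col-0 10 h replicate 2 or 3 was (1.07 to 1.12). The negative value of SCPL41 (-0.36 ± 0.12) became 1.01 on the spike-in scale and lost its call without any 1 of 5 arrays, namely Col-0 0 h replicate 2, Col-0 10 h replicate 2 or 3, rps2 0 h replicate 3 or rps2 10 h replicate 1 (-0.27 to -0.35).

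**Figure D4:**
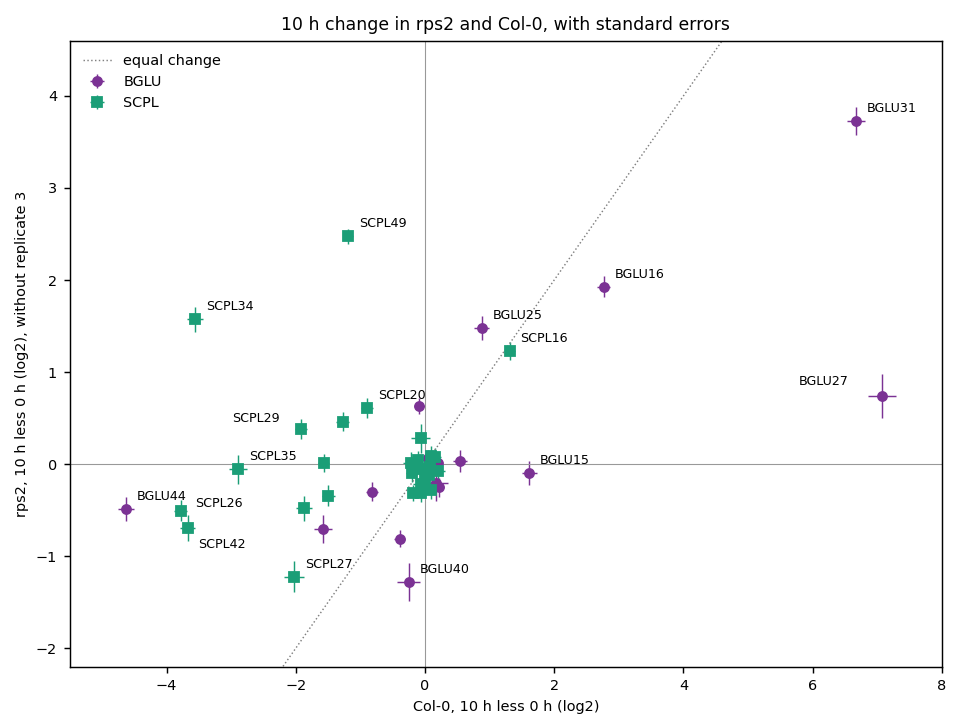
Log2 change by 10 h in rps2 without replicate 3 (vertical axis) against that in Col-0 (horizontal axis), with standard errors, for the BGLU and SCPL genes. The dotted line marks equal change. SCPL34 and SCPL49 lie above 0 in rps2 and below 0 in Col-0, and BGLU27 lies at 0.74 in rps2 and 7.08 in Col-0. Both axes use the deposited scale.

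Within rps2, the 10 h against 0 h comparison gave 0 calls in either family with all arrays (limma), and 0% of all probe sets were called higher and 0% lower. At an unadjusted p under 0.05, 7 BGLU and 13 SCPL genes were counted. Limma with trended and robust variance called 4 and 5, and with array weights, which gave replicate 3 a weight of 0.0573, it called 11 and 14. No share of all probe sets is given for these settings or for the unadjusted p, so these counts are not read as results about the families. Without replicate 3, 5 BGLU genes rose and 6 fell, and 6 SCPL genes rose and 8 fell, where 21.2% of all probe sets rose and 26.9% fell. Without replicate 3, the spike-in scale gave 5 higher and 2 lower BGLU genes and 7 higher and 1 lower SCPL genes. Repeated quantile normalisation gave 7 higher and 6 lower SCPL genes. With all arrays, the spike-in centring moved the median of all probe sets by 0.29. The counts under these 2 scalings have no background share and are not read as results about the families.

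BGLU31 had the largest rise in rps2. It read 0.07, 0.00 and -3.76 at 10 h, against -3.72, -3.65 and -3.70 at 0 h, which is a change of 3.73 ± 0.16 without replicate 3 (limma, adjusted p = 3.5e-11) and of 2.46 ± 0.73 with it (adjusted p = 0.052). BGLU16 read 1.79, 1.68 and 0.10 at 10 h, against -0.27, -0.22 and -0.09 at 0 h. Its change was 1.93 ± 0.11 without replicate 3 and 1.38 ± 0.33 with it (adjusted p = 0.052). In BGLU31 replicate 3 lay below every 0 h array, and in BGLU16 it lay just above them. BGLU25 and BGLU27 changed by 1.48 ± 0.13 and 0.74 ± 0.24 without replicate 3, and BGLU42 (AT5G36890), known from coumarin secretion by roots, by 0.63 ± 0.09. With all arrays these 3 were at 0.91, 0.47 and 0.42, with no call.

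BGLU40, BGLU33, BGLU47 and BGLU44 fell most in rps2 without replicate 3. BGLU40 (AT1G26560) read -0.92, -0.76 and 0.19 at 10 h, against 0.87, 0.47 and 0.00 at 0 h, a change of -1.29 ± 0.21 without replicate 3 (limma, adjusted p = 8.3e-05) and of -0.94 ± 0.28 with it (adjusted p = 0.052). BGLU33 changed by -0.81 ± 0.09 without replicate 3 and by -0.44 ± 0.23 with it. Without replicate 3 both were called under either scaling, BGLU40 at -0.97 on the spike-in scale and -3.14 after repeated quantile normalisation, and BGLU33 at -0.496 and -2.39. The latter scaling widens the values of rps2 10 h replicates 1 and 2, so its larger changes and its calls there are not read as a check. BGLU47 and BGLU44 changed by -0.71 ± 0.15 and -0.49 ± 0.13 without replicate 3, and by -0.57 and -0.27 with it, with no call. Without replicate 3 they were at -0.39 and -0.17 on the spike-in scale, where neither passed the test, and at -1.57 and -0.93 after repeated quantile normalisation, where both did.

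SCPL49 (AT3G10410), which encodes the vacuolar carboxypeptidase Y, changed in opposite directions in the genotypes. In rps2 it read 0.74, 0.79 and -1.60 at 10 h, against -1.59, -1.77 and -1.76 at 0 h, a change of 2.47 ± 0.08 without replicate 3 (limma, adjusted p = 3.8e-12) and of 1.69 ± 0.45 with it (adjusted p = 0.052). In Col-0 it read 1.10, 1.06 and 1.18 at 0 h, then -0.09, 0.00 and 0.02 at 6 h and -0.14, 0.00 and -0.11 at 10 h. The change there was -1.14 ± 0.45 by 6 h (adjusted p = 0.051) and -1.19 ± 0.45 by 10 h (adjusted p = 0.037), and after repeated quantile normalisation the 10 h change was -1.24 and not called. SCPL49 was called at both Col-0 times without rps2 10 h replicate 3. The difference of the changes was 3.67 ± 0.11 without replicate 3 and 2.88 ± 0.64 with it (adjusted p = 0.0025).

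SCPL34 also moved in opposite directions. Its rps2 arrays read 1.39, 1.69 and 0.08 at 10 h, against -0.23, 0.00 and 0.14 at 0 h, a change of 1.57 ± 0.14 without replicate 3 and of 1.09 ± 0.30 with it (limma, adjusted p = 0.052). SCPL20, SCPL29 and SCPL46 rose in rps2 without replicate 3 by 0.61 ± 0.11, 0.38 ± 0.11 and 0.46 ± 0.11, and all 3 fell in Col-0 by 10 h. With all arrays the rps2 changes were 0.42, 0.26 and 0.33, with no call. SCPL20 lost its rps2 call after repeated quantile normalisation (0.31). In all, 5 SCPL genes fell in Col-0 and rose in rps2, 6 fell in both, 2 fell in Col-0 alone, 2 fell in rps2 alone and 1, SCPL16, rose in both, with Col-0 taken from all arrays and rps2 without replicate 3. No BGLU gene changed in opposite directions: 4 rose in both genotypes, 3 fell in both, 3 rose in Col-0 alone, and 4 changed in rps2 alone. Of all probe sets, 2.58% fell in Col-0 and rose in rps2, 18.2% fell in both, 9.71% fell in Col-0 alone, 6.71% fell in rps2 alone, 14.5% rose in both, 12.8% rose in Col-0 alone and 1.97% rose in Col-0 and fell in rps2. The joint patterns were not tested. Of the genes counted here as lower in rps2, BGLU41, BGLU43, SCPL28, SCPL40 and SCPL41 lay at 0.0042 to 0.062 on the spike-in scale without a call, and SCPL50 at 0.039 after repeated quantile normalisation.

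SCPL27 had the largest fall of the family in rps2. It read -0.09, 0.00 and 1.13 at 10 h, against 1.17, 1.24 and 1.13 at 0 h, a change of -1.22 ± 0.17 without replicate 3 (limma, adjusted p = 2e-05) and of -0.83 ± 0.27 with it (adjusted p = 0.055). SCPL42, SCPL26 and SCPL25 changed by -0.70 ± 0.14, -0.51 ± 0.11 and -0.48 ± 0.14 without replicate 3, and by -0.48, -0.32 and -0.35 with it, with no call. On the spike-in scale, without replicate 3, these 3 were at -0.38, -0.19 and -0.17 and did not pass the test. The shift of that scale rests mostly on rps2 10 h replicate 2.

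The genotypes differed in some members at 0 h. In rps2, 4 of 18 BGLU genes (22.2%) were lower than in Col-0 and 0 were higher, and 5 of 29 SCPL genes (17.2%) were lower and 1 higher, where 7.69% of all probe sets were lower and 8.24% higher. For SCPL the split of lower against higher calls was 5 and 0 on the spike-in scale and 3 and 2 after repeated quantile normalisation. Without rps2 10 h replicate 3, which enters only through the shared estimate of the spread, 5 BGLU genes were lower and 1 higher, and 6 SCPL genes were lower and 3 higher, where 13.9% of all probe sets were lower and 16.3% higher. These differences enter the difference of the changes above.

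SCPL49 stood furthest apart at 0 h, with -1.59, -1.77 and -1.76 in rps2, against 1.10, 1.06 and 1.18 in Col-0. The difference was -2.82 ± 0.45 (limma, adjusted p = 0.0011). BGLU44 read 0.39, 0.10 and 0.35 in rps2, against 2.03, 2.03 and 2.08 in Col-0, a difference of -1.77 ± 0.17. SCPL20 read -0.86, -0.77 and -0.99 in rps2, against 0.79, 0.93 and 0.91 in Col-0, a difference of -1.75 ± 0.14. None of these 3 genes had overlapping groups.

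BGLU47, BGLU42 and BGLU43 were lower in rps2 at 0 h by -1.05 ± 0.16, -0.86 ± 0.14 and -0.52 ± 0.12. SCPL35, SCPL26 and SCPL29 were lower by -0.66 ± 0.15, -0.57 ± 0.15 and -0.48 ± 0.12, and SCPL50 was higher by 0.55 ± 0.13. SCPL26 lost its call without Col-0 0 h replicate 2 or rps2 0 h replicate 2 or 3 (-0.51 to -0.57). SCPL50 lost its call without Col-0 0 h replicate 1 or 3 or rps2 0 h replicate 1 or 3 (0.47 to 0.52), and on the spike-in scale (0.38). BGLU25 differed by -1.03 in both fits, with a standard error of 0.34 with all arrays (adjusted p = 0.062) and of 0.11 without rps2 10 h replicate 3.

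Members that lie side by side in the genome had fitted changes of different size. In the gene order of RefSeq assembly TAIR10.1, BGLU27 lies next to BGLU16, BGLU31 next to BGLU32 and BGLU43 next to BGLU44. By 10 h in Col-0, BGLU31 changed by 6.67 ± 0.73 and its neighbour BGLU32 by 0.19 ± 0.06 (-0.88 on the spike-in scale), and BGLU44 changed by -4.63 ± 0.17 beside -0.82 ± 0.12 for BGLU43. Among the neighbours BGLU15, BGLU28 and BGLU29, the changes were 1.61, 0.54 and 0.05, the second of them -0.54 on the spike-in scale. SCPL26 changed by -3.78 ± 0.15 next to SCPL28 at -0.05 ± 0.10, and SCPL42 by -3.68 ± 0.18 with SCPL41, separated from it by 2 genes, at 0.10 ± 0.09. SCPL22 and SCPL23 are adjacent, and neither passed the test. The differences between neighbours were not tested, and different probe sets can respond differently to the same change.

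**Figure D5:**
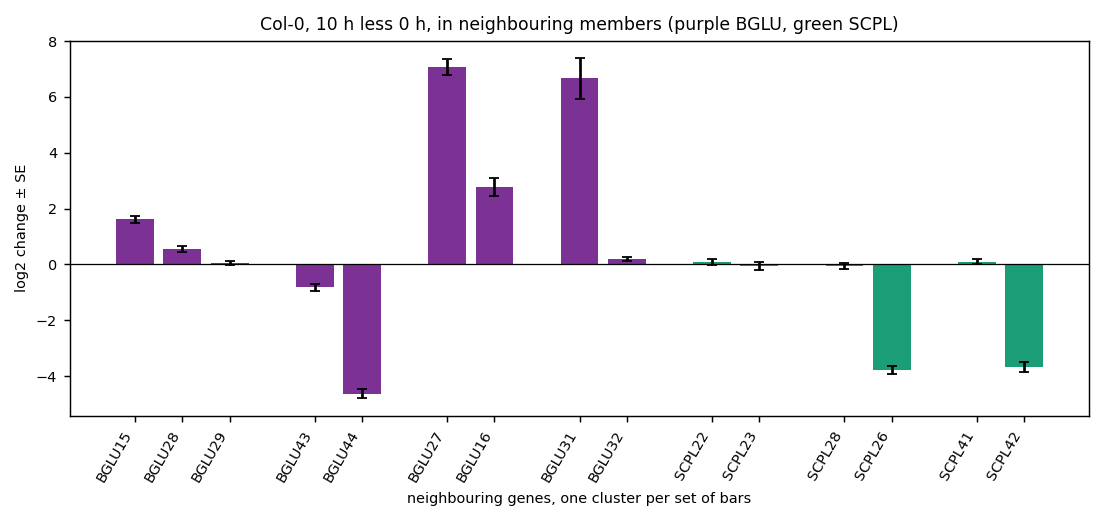
Log2 change from 0 to 10 h in Col-0 (bars, with standard errors, vertical axis) of the members that lie next to or near each other, 1 cluster per set of bars (horizontal axis), on the deposited scale. BGLU31 at 6.67 stands beside BGLU32 at 0.19 (-0.88 on the spike-in scale), and SCPL26 at -3.78 beside SCPL28 at -0.05.

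Some members stayed close to their medians. BGLU19, BGLU24, BGLU29 and BGLU36, and SCPL18, SCPL21, SCPL22, SCPL23, SCPL30, SCPL31, SCPL32, SCPL33, SCPL38, SCPL44 and SCPL47, passed none of the 7 comparisons on the deposited scale with either set of arrays. That is 4 of 18 BGLU and 11 of 29 SCPL genes. Their group means spanned 0.10 (SCPL22) to 0.44 (BGLU19), and 1 array, Col-0 10 h replicate 1 at 0.83, was well above the others of BGLU19. SCPL43 and SCPL48 each passed in 1 comparison with 1 set of arrays. The group means of these genes spanned 0.27 and 0.65 without rps2 10 h replicate 3. With arrays centred on the spike-ins all 29 SCPL genes were called lower between Col-0 6 and 10 h, where the median of all probe sets moved by -1.11. For a flat profile here, a gene that kept its place relative to the bulk cannot be told apart from one below detection.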

How the data were processed

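The authors deposited log2 values for 22810 probe sets on 15 arrays. They used RMA, a background correction, quantile normalisation and probe summary, per the submitters' processing notes. Its software, and the step that set every probe set's median to 0, are not given in the sources used here. The values ran from -8.93 to 7.49, and no further scaling was applied. Arrays have no read depth, and precision is set by how many there are: the median standard error of a difference was 0.12 with all arrays.

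A mean per group was fitted with limma 3.58.1 in R 4.3.3 (lmFit, eBayes; statmod 1.5.0 for array weights) to 22746 probe sets, without 64 control probe sets, and limma's two-sided moderated test was adjusted by Benjamini-Hochberg over all of them at a threshold of 0.05. There were 7 comparisons. The steps were tested on simulated data. The sample titles number the replicates, which were treated as biological, and p-values rest on their spread.

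The members and lists were chosen with earlier results of these data known. Named are, per family and comparison, up to 4 genes with the largest rise and 4 with the largest fall past the threshold, all past it in the difference of changes or with calls of opposite sign, and of the partner lists up to 3 genes each; BGLU19, BGLU28, BGLU32, BGLU41 and a few further members were named after their values were seen. The alternatives were array weights, each array left out, a fit of only the groups compared, trended and robust variance, the replicate number as a block, repeated quantile normalisation, centring on poly-A spike-ins and an adjusted p of 0.01. Leaving out probe sets of shared transcripts changed nothing, since no member has one. The 2 combinations without rps2 10 h replicate 3 were chosen after seeing the data. Names of genes and neighbours came from the platform annotation and from RefSeq, assembly TAIR10.1.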

Additional observations from a re-analysis of the deposited data

Results flagged for a closer look

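For 22 members the 10 h change differed between the genotypes by limma's test of the difference itself, on the deposited scale with all arrays. Values are the rps2 change less the Col-0 change. Among the BGLU genes they were -6.61 for BGLU27, -4.20 for BGLU31, -1.62 for BGLU15, -1.38 for BGLU16, -0.49 for BGLU28 and -0.41 for BGLU41, and they were 4.36 for BGLU44, 1.01 for BGLU47 and 0.66 for BGLU43. Of these, BGLU28 and BGLU41 turned positive on the spike-in scale.

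Among the SCPL genes the value was negative for SCPL41 alone (-0.36), which also turned positive on the spike-in scale. It was 4.64 for SCPL34, 3.46 for SCPL26, 3.20 for SCPL42, 2.88 for SCPL49, 2.85 for SCPL35 and 2.18 for SCPL29. The others were SCPL45 at 1.63, SCPL46 at 1.60, SCPL25 at 1.52, SCPL20 at 1.32, SCPL50 at 1.31 and SCPL27 at 1.20. SCPL20 and SCPL49 began from lower values in rps2 at 0 h, and RCA had a difference of 2.81 in the same test. Their part in these values was not tested.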

How the results depend on the processing

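Counts of called genes are given as BGLU and then SCPL. Shares of all probe sets are given above only for the deposited scale, with and without rps2 10 h replicate 3. For rps2 10 h against 0 h, 0 and 0 with all arrays became 11 and 14 without rps2 10 h replicate 3 or with array weights, 4 and 5 with trended and robust variance, 5 and 8 with repeated quantile normalisation, 5 and 6 on the spike-in scale, and, without replicate 3, 7 and 8 on the spike-in scale and 12 and 13 with repeated quantile normalisation. For rps2 against Col-0 at 10 h, 9 and 12 became 16 and 29 on the spike-in scale and 18 and 29 there without replicate 3, and the BGLU count was 5 in a fit of only the groups compared. For the difference of changes, 9 and 13 became 15 and 29 on the spike-in scale and 16 and 29 there without replicate 3, with 5 for BGLU after repeated quantile normalisation. For Col-0 10 h against 0 h, 10 and 14 became 17 and 28 on the spike-in scale, with or without replicate 3. For Col-0 10 h against 6 h, 8 and 5 became 15 and 29 on the spike-in scale, 17 and 29 there without replicate 3, and 2 and 3 after repeated quantile normalisation; the BGLU count was 5 at an adjusted p of 0.01, and the SCPL count was 10 with only the groups compared and 9 with array weights. For rps2 against Col-0 at 0 h, the SCPL count of 6 became 10 with only the groups compared, with array weights or without replicate 3 and with repeated quantile normalisation, and 3 at an adjusted p of 0.01.

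Leaving out 1 array at a time gave 0 to 11 and 0 to 14 for rps2 10 h against 0 h, with 0 calls unless replicate 3 was the one left out. The ranges were 7 to 10 and 11 to 16 for rps2 against Col-0 at 10 h, 4 to 6 and 3 to 9 at 0 h, and 8 to 13 and 11 to 14 for the difference of changes. Within Col-0 they were 8 to 12 and 12 to 14 by 10 h, 8 to 11 and 11 to 14 by 6 h, and 6 to 10 and 5 to 9 for the later interval. The SCPL count for rps2 against Col-0 at 0 h was 3 without rps2 0 h replicate 3, and that for the later Col-0 interval was 8 without rps2 10 h replicate 1 and 9 without replicate 3.

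Signs turned in the following cases, besides those given above with the genes. For rps2 against Col-0 at 10 h, BGLU16 was 0.20 after repeated quantile normalisation and 0.10 on the spike-in scale, and 0.996 and 0.67 without replicate 3. On the spike-in scale, with and then without replicate 3, SCPL20 was 0.77 and 0.98, SCPL41 0.89 and 0.90, BGLU40 0.82 and 0.50, SCPL28 0.995 and 0.94, and SCPL40 1.04 and 1.02. BGLU33 was 0.63 in the second of these settings, against -0.60 without replicate 3 on the deposited scale. For the difference of changes in the same 2 settings, BGLU28 was 0.88 and 0.88, BGLU41 0.95 and 0.93, SCPL41 1.01 and 1.01, and BGLU40 0.68 and 0.36, with BGLU33 at 0.97 in the second setting, against -0.42. BGLU16 was 0.56 there without replicate 3 and 0.71 without it after repeated quantile normalisation. BGLU25, at 0.04 with all arrays, was 0.60 without rps2 10 h replicate 3, where it was called, and -0.04 without Col-0 10 h replicate 1, -0.08 without rps2 0 h replicate 2, -0.21 without rps2 10 h replicate 1 and -0.28 without rps2 10 h replicate 2. SCPL26 was 0.10 for Col-0 10 h against 6 h after repeated quantile normalisation with all arrays and without replicate 3, and BGLU44 was 0.019 for rps2 10 h against 0 h on the spike-in scale. The cause was not tested.

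The replicate numbers gave no clear sign of a pairing: of 30 same-numbered pairs across groups, 2 had a correlation of deviations over 0.1 (range -0.29 to 0.26). This check cannot exclude a pairing, since the deviations within rps2 10 h are dominated by replicate 3. With the replicate block the counts were 9 and 13 for the 10 h change of Col-0, 9 and 12 for rps2 against Col-0 at 10 h and 0 and 0 for rps2 10 h against 0 h, and no call of the 98 gene results named was changed by the block. The deposited values carry no signal over background, so that which members lie near it cannot be told.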

Other observations

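Genes that act on the same glucose conjugates or proteins were listed with earlier results of these data known, and few of them had a named probe set. Of 17 listed genes for glucose conjugates of abscisic and salicylic acid, 5 were measured. In Col-0, 4 rose and 0 fell by 10 h, a comparison in which 29.2% of all probe sets rose and 30.5% fell. UGT76B1, a glucosyltransferase of isoleucic and salicylic acid, changed by 8.30 ± 1.45, UGT71B6, which glucosylates abscisic acid, by 3.58 ± 0.22 and UGT71C5 by 1.14 ± 0.13. On the spike-in scale these were 7.22, 2.50 and 0.06, and UGT74F1 turned from 0.50 to -0.58. In rps2 without replicate 3, UGT76B1 changed by 7.68 ± 0.21 and UGT71B6 by 0.96 ± 0.14.

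Of 31 genes for ER bodies and glucosinolate hydrolysis, 5 were measured. NAI1, a transcription factor needed for ER bodies, read 2.34, 1.37 and -0.23 in rps2 at 10 h, against -0.24, 0.00 and -0.15 at 0 h. NAI2, a structural component of ER bodies, read 2.94, 2.21 and 0.00 in rps2 at 10 h, against 0.00, -0.10 and 0.03 at 0 h. Without replicate 3 they rose by 1.98 ± 0.28 and 2.60 ± 0.15 there, and with it neither passed the test (adjusted p = 0.072 and 0.052). In Col-0 by 10 h, NAI1 rose by 1.63 ± 0.48, or 0.56 on the spike-in scale, where it was not called, and NAI2 changed by 0.51 ± 0.51 (adjusted p = 0.42), or 0.51 ± 0.14 without rps2 10 h replicate 3 (adjusted p = 0.0036), and by -0.57 on the spike-in scale, where it was not called. The glucosidase PYK10 changed by 0.40 ± 0.10 in Col-0 and by -0.68 on the spike-in scale.

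Of 23 carboxypeptidase and secretory protease partners, 6 were measured. In Col-0 by 10 h, 2 of these rose and 3 fell, where 29.2% of all probe sets rose and 30.5% fell. The subtilase SBT3.3, known from immune priming, rose by 6.24 ± 0.67 (5.16 on the spike-in scale). The vacuolar processing enzymes GAMMA-VPE and BETA-VPE fell by 1.02 and 0.95 on the log2 scale (-2.09 and -2.03 on the spike-in scale), and ALPHA-VPE changed by 0.53 ± 0.09, or -0.54 on the spike-in scale. At 0 h, GAMMA-VPE and BETA-VPE were lower in rps2 than in Col-0, by -1.09 ± 0.11 and -1.43 ± 0.14. Of 14 sinapate and hydroxycinnamate ester partners, 7 were measured. In Col-0 by 10 h, 2 of these rose and 0 fell, beside the same 29.2% and 30.5% of all probe sets. ALDH2C4 rose by 2.19 ± 0.20 (1.12 on the spike-in scale) and UGT84B1 by 0.63 ± 0.09 (-0.45 on the spike-in scale). Of 17 genes for darkness and sugar starvation, 0 were measured.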
